A study of Mus musculus with 9 samples.

Results

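The mitosis and spindle genes described here are 60 mouse genes chosen by name, of 47643 genes in the count files, and their products take a cell from entry into mitosis to cytokinesis. They fall into 8 roles, which are mitotic entry (9 genes), spindle assembly and poles (8), centromere and kinetochore (9), the spindle checkpoint and anaphase onset (9), the chromosomal passenger complex (4), kinesins of chromosome arms and microtubule ends (4), the midzone and cytokinesis (8) and chromosome structure (9). Every member was found in the files under 1 gene identifier, on 17 chromosomes, and 59 of the 60 had at least 100 reads summed over the libraries and entered the test. Kif18b, a kinesin of microtubule plus ends, had 91 reads and was not tested.

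The libraries are bulk 3' mRNA sequencing of pancreatic ductal adenocarcinoma (PDAC) cells sorted from mouse tumors. The 6 KPF libraries (4269, 4435, 4504h, 4504s, 4515 and 4601) held GFP+Yap+ cells of mice carrying Trp53 frt/+, Pdx-Flp and R26 FSF-CreER/Dual alleles, among others. The 3 KPYYF libraries (4449, 4891 and 4938) held Tm+Yap- cells from relapsed nodules of mice with those same alleles plus Yap flox/flox. Mice of both genotypes were fed tamoxifen after their tumors could be felt, so the groups share these alleles and the drug. Pdx-Flp acts in pancreatic cells, and the CreER that removes Yap and switches the reporter from GFP to tdTomato (Tm) is made only in cells that Flp has recombined. Genotype, Yap status, Cre recombination, the reporter colour it sets and growth as a relapsed nodule change together between the groups and cannot be told apart. The age and sex of each mouse are not given in the sources used here, and libraries 4504h and 4504s carry mouse numbers that differ by a letter only, so KPF may hold 5 mice rather than 6. The n, SDs and tests below count libraries. With 4504h and 4504s summed to 1 library, the median log2 fold change of the genes described here was 1.215 (all genes -0.07). At an unadjusted p under 0.05, 36 of 59 were higher in KPYYF, against 5.76% of all genes. By an adjusted p of 0.05 in edgeR, 0 passed, against 0.177% of all genes higher. The labels do not say that the libraries of a group are independent beyond the mouse number, so p-values measure the spread between these libraries.

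Mitotic genes are transcribed in a wave that peaks in G2 and M phase. The DREAM complex holds them down in resting cells, and the Mybl2-MuvB complex and Foxm1 switch them on through a short promoter element, the cell cycle genes homology region (CHR), which often lies near CCAAT boxes bound by NF-Y. Yap with its Tead partners binds distal enhancers and cooperates with Mybl2-MuvB at many of these genes in cultured cells. In bulk libraries such as these, more cycling cells and more RNA per cycling cell cannot be told apart.

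Reads on genes ran from 8116539 to 9635514 per library, and 3 reads corresponded to 0.292 to 0.437 CPM, a gene's reads scaled to a common library size with TMM factors and the unit of all levels below. Yap1, the deleted gene, ran from 41.8 to 151 CPM in KPF and stood at 0.712, 2.84 and 7.12 CPM in the KPYYF libraries, which matches the labels (log2 fold change -4.79 ± 0.72 SE, edgeR quasi-likelihood adjusted p = 0.0159, and 0.05 or more under 2 of 17 alternatives, at most 0.0771). Reads of Xist, the RNA of the inactive X chromosome in female cells, split the libraries. Libraries 4435, 4504h and 4504s of KPF and all KPYYF libraries had 3452 to 16108 Xist reads, while KPF libraries 4269, 4515 and 4601 had 71 to 159. Summed levels of 8 carcinoma epithelium markers were 3238 to 11690 CPM in KPF and 570 to 1828 CPM in KPYYF, with 3 of 8 (Krt18, Cdh1 and Muc1) lower by adjusted p. All 8 of these markers were detected in all 9 libraries. Fibroblast markers summed to 411 to 5442 CPM in KPF and 1130 to 3109 CPM in KPYYF, leukocyte markers to 459 to 7840 and 355 to 739.6, lymphocyte markers to 1.33 to 138 and 30.5 to 82.8, endothelial markers to 16.8 to 82.1 and 17.9 to 21.0, acinar markers to 64.3 to 19210 and 70.1 to 5290, islet markers to 2.45 to 75.1 and 2.63 to 20.4, and erythroid markers to 13.6 to 260.5 and 23.3 to 110.9. The acinar marker Amy2a5 had no read in any library. The part of other cell types in the results below was not tested.

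All 59 tested members had a higher fitted level in KPYYF than in KPF cells, with a median log2 fold change of 1.13 and a range from 0.12 (Espl1) to 3.08 (Aurkb). Of all 14105 genes tested, 46.7% had a log2 fold change above 0, and the median of all genes was -0.07. The summed level of the 60 members was 1162 to 2325 CPM in the 6 KPF libraries and 3198, 3967 and 4161 CPM in KPYYF libraries 4449, 4891 and 4938, so the groups did not overlap. No single member passed an adjusted p of 0.05 in edgeR's quasi-likelihood test, where 0.305% of all genes passed as higher and 0.794% as lower. At an unadjusted p under 0.05, 33 of 59 members (55.9%) were higher and 0 lower, against 6.10% of all genes higher and 10.0% lower. Adding a difference over 2-fold left 29 members higher and 0 lower, against 4.20% and 9.20% of all genes. In 25 of 59 members (42.4%) every KPYYF library lay above every KPF library and in 0 below, against 3.92% and 5.18% of all genes. The smallest adjusted p-values were those of Ccna2 (0.0514), Plk1 (0.0535), Ccnb2 and Ube2c (both 0.0631) and Ccnb1 (0.0674). Another test tool, DESeq2, called 11 members higher at an adjusted p under 0.05 (1.96% of all genes), namely Ccna2, Ccnb1, Ccnb2, Cdc25b, Plk1, Aurka, Tpx2, Plk4, Ttk, Ube2c and Top2a. Limma-voom with quality weights called Ccna2 and Ccnb1 (0.305% of all genes).

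**Figure D1:**
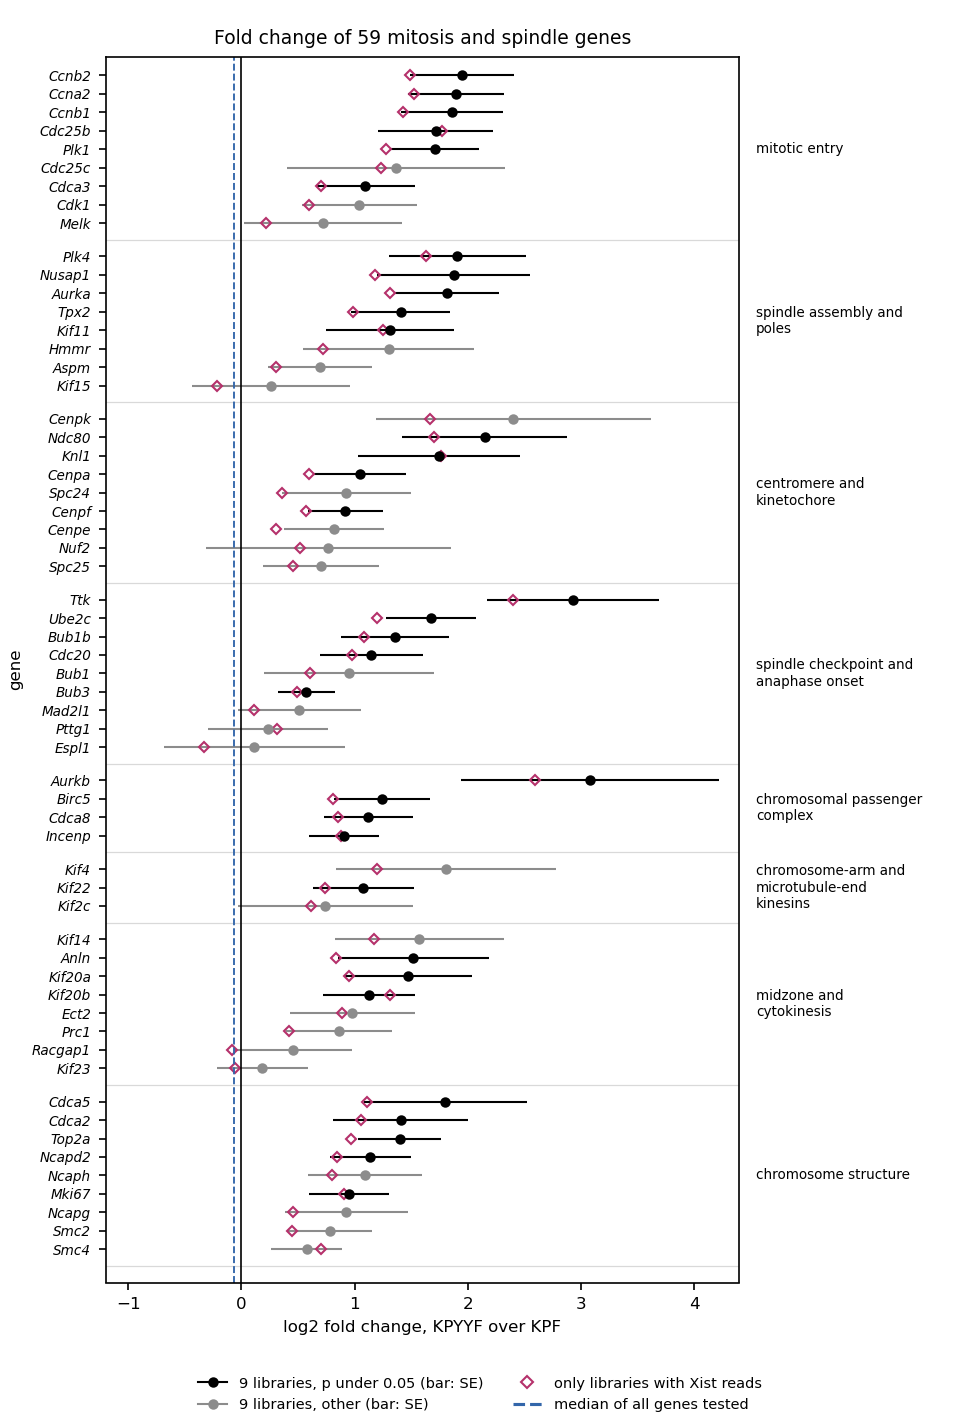
Log2 fold change of KPYYF over KPF for the 59 tested members, grouped by role, with bars of 1 SE. Black points have an unadjusted p under 0.05 (33 genes), open diamonds give the fold change from the libraries with Xist reads alone, and the dashed line is the median of all genes tested (-0.07). All points lie right of 0, and 55 of the diamonds do.

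The level of these genes also differed within KPF. With each gene centred on its mean log2 CPM over the 9 libraries, the median over the members was -0.71, -1.03 and -0.86 in the KPF libraries with few Xist reads (4269, 4515 and 4601) and 0.03, 0.25 and 0.11 in the KPF libraries with Xist reads (4435, 4504h and 4504s). It was 0.78, 0.84 and 1.11 in the KPYYF libraries. In 25 of 59 members the KPF libraries with Xist reads all lay above the KPF libraries without, against 5.69% of all genes. Comparing only the libraries with Xist reads, 3 of KPF with 3 of KPYYF, the median log2 fold change of the members was 0.85 (all genes 0.02), 55 of 59 were above 0, and 21 had an unadjusted p under 0.05 (4.88% of all genes were higher). In that comparison 27 of 59 members lay higher in every KPYYF library (8.06% of all genes) and 0 lower. Its KPF side includes 4504h and 4504s, which may come from the same mouse, and it was not repeated with them summed. The highest library of a member was a KPYYF library in 54 of 59 (17 in 4449, 15 in 4891 and 22 in 4938). The lowest library was 4269, 4515 or 4601 in 54 of 59. Neither count was made over all genes, so whether the members differ from other genes in this order was not tested.

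**Figure D2:**
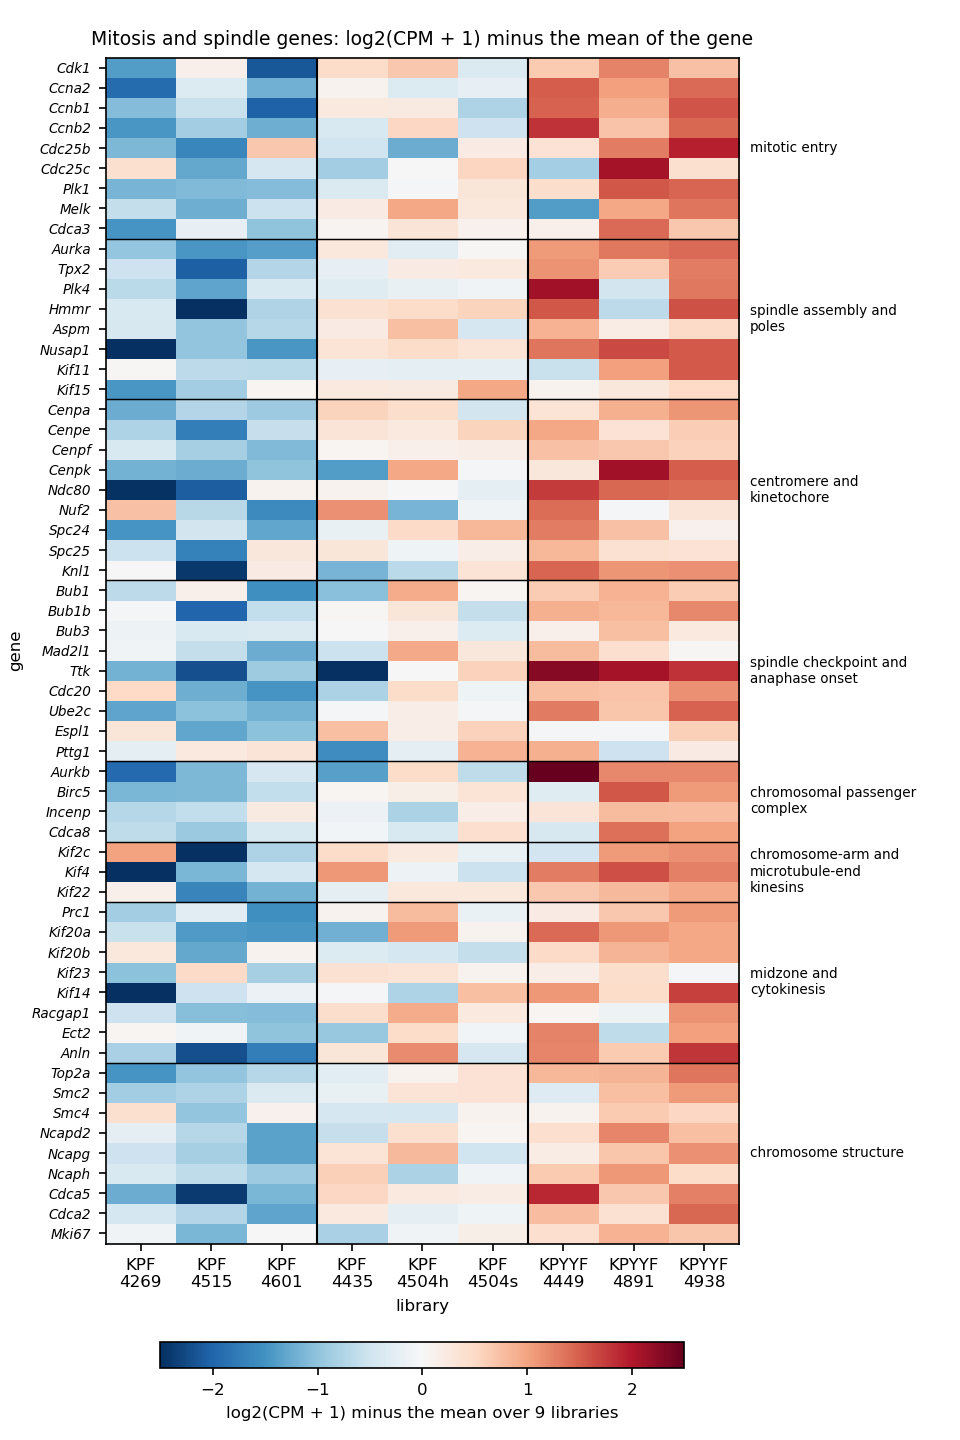
Levels of the 59 tested members (rows, by role) in the 9 libraries (columns), as log2(CPM + 1) minus the gene's mean over the libraries (colour scale from -2.5 to 2.5). The first 3 columns are the KPF libraries with few Xist reads, which are mostly blue, the next 3 the KPF libraries with Xist reads, which are pale, and the last 3 the KPYYF libraries, which are mostly red.

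The members share promoter sequence that their choice by name did not use. The RefSeq table of promoter windows (GRCm38.p6, 250 bases before to 50 after each start) held 51 of the 60 members. The CHR letters TTTGAA or TTCGAA, searched on both strands, were present in the windows of 40 of these 51 (78.4%), against 21.7% of all 27025 genes of the table. Within 50 bases of the start they were present in 36 members (70.6%), against 6.1% of all genes. The CCAAT letters, on either strand, were present in 36 of 51 members (70.6%) against 41.1% of all genes, and both motifs together in 33 (64.7%) against 8.6%. Of 64 other mitotic genes in the table, 45.3% held the CHR letters and 62.5% the CCAAT letters. These shares were 25.8% and 64.5% for 31 DNA replication genes, and 38.9% and 55.6% for 18 regulators of mitotic transcription. The CCAAT share of the members was thus near that of other cell cycle lists. The E2F words TTCCCGC or TTCGCGC or TTGCCGC or TTGGCGC, on either strand and typical of genes of S phase, were present in 12 of 51 members (23.5%) and in 22 of 31 DNA replication genes (71.0%), against 10.9% of all genes. Windows of Birc5, Ccnb1, Cenpe, Cenpk, Mad2l1, Melk, Ncaph, Nuf2, Nusap1, Plk4 and Pttg1 did not hold the CHR letters. A match is a description of the letters and not of binding.

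**Figure D3:**
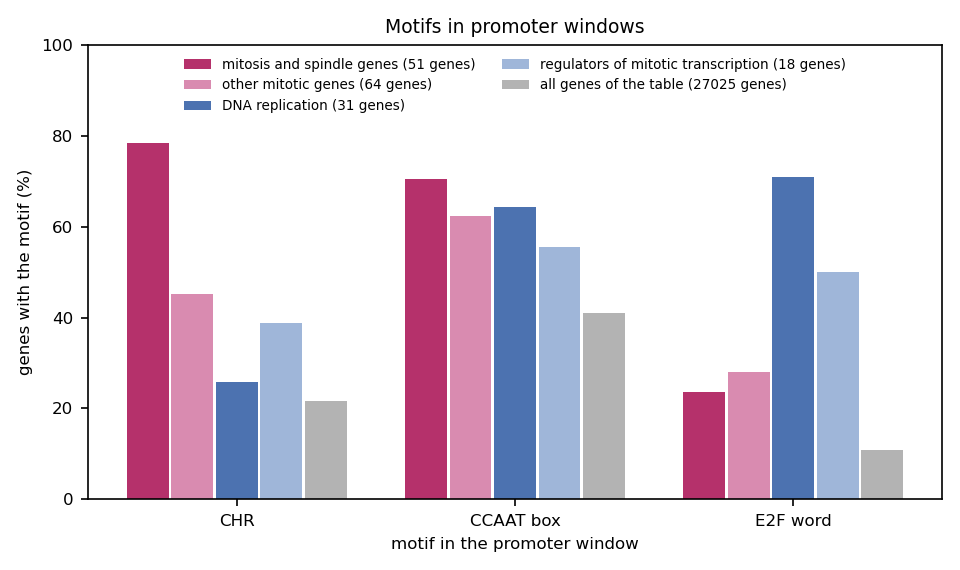
Share of genes (vertical axis, percent) whose promoter window holds the CHR, the CCAAT box or an E2F word, for the members, 3 other gene lists and all genes of the table. The members stand highest for CHR at 78.4%, and the DNA replication genes stand highest for the E2F words at 71.0%.

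Promoter stretches of 7 members are shown, each from 120 bases before to 50 bases after the start, 1 for each role in which a member picked by the rule for named genes holds the CHR there, so that the place of the CHR and of the CCAAT boxes can be compared. Of the chromosomal passenger complex, the picked members gave none (Birc5 lacks the CHR letters, and Aurkb and Incenp have no window in the table), while Cdca8, which the rule did not pick, holds 1 CHR match in its window. They are read 5' to 3' along the gene, with CHR and CCAAT matches of either strand in capitals (TTTGAA or TTCAAA or TTCGAA for CHR and CCAAT or ATTGG for the box), and no CHR match overlaps a CCAAT match.
Ccnb2, GRCm38.p6, chr9:70421505-70421674, minus strand: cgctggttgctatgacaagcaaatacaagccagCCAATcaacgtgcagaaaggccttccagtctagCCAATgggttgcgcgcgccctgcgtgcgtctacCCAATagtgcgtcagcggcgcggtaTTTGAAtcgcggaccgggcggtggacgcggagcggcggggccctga
Aurka, GRCm38.p6, chr2:172370521-172370690, minus strand: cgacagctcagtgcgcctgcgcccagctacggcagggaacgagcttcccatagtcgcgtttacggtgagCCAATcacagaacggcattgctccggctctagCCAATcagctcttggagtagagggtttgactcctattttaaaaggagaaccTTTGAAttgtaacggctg
Ndc80, GRCm38.p6, chr17:71526808-71526977, minus strand: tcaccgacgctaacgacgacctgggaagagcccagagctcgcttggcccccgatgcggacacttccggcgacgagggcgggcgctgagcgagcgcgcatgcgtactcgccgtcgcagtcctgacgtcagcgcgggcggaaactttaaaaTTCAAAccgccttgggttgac
Ube2c, GRCm38.p6, chr2:164769809-164769978, plus strand: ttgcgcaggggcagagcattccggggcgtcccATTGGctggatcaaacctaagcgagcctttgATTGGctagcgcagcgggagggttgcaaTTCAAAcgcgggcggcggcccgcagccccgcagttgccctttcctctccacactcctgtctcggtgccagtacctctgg
Kif22, GRCm38.p6, chr7:127042371-127042540, minus strand: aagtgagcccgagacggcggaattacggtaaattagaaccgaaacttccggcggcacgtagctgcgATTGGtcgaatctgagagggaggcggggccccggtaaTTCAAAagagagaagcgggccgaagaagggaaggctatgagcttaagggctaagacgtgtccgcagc
Kif20b, GRCm38.p6, chr19:34922238-34922407, plus strand: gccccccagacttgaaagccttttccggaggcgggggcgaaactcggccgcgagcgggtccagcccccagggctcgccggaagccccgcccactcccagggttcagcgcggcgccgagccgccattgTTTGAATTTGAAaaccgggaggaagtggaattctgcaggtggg
Top2a, GRCm38.p6, chr11:99024140-99024309, minus strand: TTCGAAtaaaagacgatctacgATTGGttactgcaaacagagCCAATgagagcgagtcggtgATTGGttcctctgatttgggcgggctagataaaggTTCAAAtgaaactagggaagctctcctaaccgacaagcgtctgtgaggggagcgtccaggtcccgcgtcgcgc
The first base of the CHR lay 5 bases after the start in Ccnb2, 33 in Aurka, 30 in Ndc80 and 8 in Kif20b, counting the start as 1, and it lay 29 bases before the start in Ube2c, 17 in Kif22 and 23 in Top2a. Ccnb2 and Top2a held 3 CCAAT boxes each, Aurka and Ube2c 2, and Kif22 1. Ndc80 and Kif20b held none in this stretch. Kif20b holds 2 CHR copies end to end, and Top2a has a second one at the far end of its stretch.

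Mitotic entry is driven by Cdk1 bound to its cyclins, with Cdc25 phosphatases and Plk1 as activators. All 9 genes of this role had a log2 fold change above 0, with a median of 1.71, the highest of the 8 roles, and 6 of 9 had an unadjusted p under 0.05 (Ccna2, Ccnb1, Ccnb2, Cdc25b, Plk1 and Cdca3). Of all genes, 6.10% were higher at that p and 3.92% were higher without overlap, the shares to set beside each of the 8 roles. Ccna2 (ENSMUSG00000027715, chr3:36564865-36572150), cyclin A of S phase and early mitosis, had 7.10 to 31.8 CPM in KPF (median 23.4) and 87.6, 61.7 and 81.0 CPM in KPYYF libraries 4449, 4891 and 4938. Every KPYYF library lay above the highest KPF library, and the means were 20.6 ± 9.11 (SD, n = 6) and 76.8 ± 13.5 CPM (n = 3). The log2 fold change was 1.90 ± 0.42 (SE, edgeR adjusted p = 0.0514), and an exact two-sided permutation test of log2 CPM gave p = 0.0119, the smallest that 84 assignments allow. Ccna2 had the smallest edgeR p of the members and does not stand for the rest. Ccnb1, Ccnb2, Plk1 and Cdca2 also reached p = 0.0119 in the exact permutation test, which was not run over all genes. For Ndc80 the exact permutation test gave p = 0.0595, for Cdk1 0.0952 and for Espl1 0.667, the largest of the members. With 4504h and 4504s summed, the exact test gave p = 0.0179 for Ccna2, the smallest that 56 assignments allow. The unadjusted p of Ccna2 stayed under 0.05 without any 1 of the 9 libraries. Of the 59 tested members, 15 stayed under it in all 9 of these edgeR fits, and 12 were under it in none. The same counts were not made over all genes, of which 4.72% to 6.45% were higher at that p in a single fit.

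Ccnb1 (ENSMUSG00000041431, chr13:100778650-100786570), cyclin B and the main partner of Cdk1 at the G2/M transition, had 8.31 to 43.5 CPM in KPF (median 22.9) and 105, 70.2 and 111.9 CPM in KPYYF. Its log2 fold change was 1.86 ± 0.45 (edgeR adjusted p = 0.0674), and its lowest library was 4601. Ccnb2 (chr9:70407692-70421547), its relative at the Golgi, had 7.98 to 33.9 CPM in KPF (median 14.3) and 85.0, 39.0 and 65.2 CPM in KPYYF (log2 fold change 1.95 ± 0.46, edgeR adjusted p = 0.0631), again without overlap. Cdk1 (ENSMUSG00000019942, chr10:69335146-69352938), the kinase itself, had 18.4 to 134 CPM in KPF (median 78.2) and 133, 198 and 139 CPM in KPYYF, so library 4504h of KPF reached the KPYYF range. Its log2 fold change was 1.04 ± 0.51 (edgeR adjusted p = 0.342) and 0.60 among the libraries with Xist reads. The groups overlapped for the kinase and not for these 3 cyclins. Plk1, the polo kinase that activates Cdc25, had 30.7 to 86.1 CPM in KPF and 94.5, 206.7 and 193 CPM in KPYYF (log2 fold change 1.71 ± 0.39, edgeR adjusted p = 0.0535). Cdc25b, the phosphatase that starts Cdk1 activation, had 18.3 to 94.3 CPM in KPF, with library 4601 highest, and 75.04, 143 and 229 CPM in KPYYF (1.72 ± 0.51). Melk, a kinase of mitotic cells, had the smallest fold change of the role, with 3.87 to 21.4 CPM in KPF and 3.33, 21.3 and 27.8 CPM in KPYYF, and its lowest level of all 9 libraries was in KPYYF library 4449 (0.72 ± 0.70, edgeR adjusted p = 0.676).

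The genes of spindle assembly and poles build the bipolar spindle. All 8 had a log2 fold change above 0, with a median of 1.36, and 5 of 8 had an unadjusted p under 0.05 (Aurka, Tpx2, Plk4, Nusap1 and Kif11). Aurka (ENSMUSG00000027496, chr2:172356190-172370535), the kinase of centrosome maturation, had 6.75 to 24.2 CPM in KPF (median 13.1) and 42.9, 51.5 and 55.1 CPM in KPYYF. The groups did not overlap, and library 4515 was lowest (means 14.1 ± 7.34 and 49.8 ± 6.30 CPM, log2 fold change 1.81 ± 0.46, edgeR adjusted p = 0.0817). Tpx2, which activates Aurka on spindle microtubules, had 8.63 to 45.6 CPM in KPF and 85.0, 60.6 and 94.5 CPM in KPYYF (1.41 ± 0.43), and Nusap1, a microtubule bundling protein, had 1.17 to 26.8 and 50.2, 62.6 and 57.8 CPM (1.88 ± 0.68), both without overlap. Plk4, the kinase of centriole duplication, had the largest fold change of the role and differed among the KPYYF libraries. It had 3.10 to 8.66 CPM in KPF (median 7.06) and 42.9, 6.45 and 24.7 CPM in KPYYF, so library 4891 lay within the KPF range (1.91 ± 0.60, edgeR adjusted p = 0.141). Hmmr, a microtubule protein of spindle poles, was also lowest in 4891 within KPYYF, at 34.5, 6.67 and 35.6 CPM against 0.775 to 16.7 CPM in KPF (1.30 ± 0.75). Kif15, a kinesin that backs up Kif11 in spindle bipolarity, had 2.33 to 16.7 CPM in KPF (median 9.03) and 8.67, 10.1 and 11.8 CPM in KPYYF (0.27 ± 0.70, edgeR adjusted p = 0.904). Among the libraries with Xist reads its log2 fold change was -0.22.

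**Figure D4:**
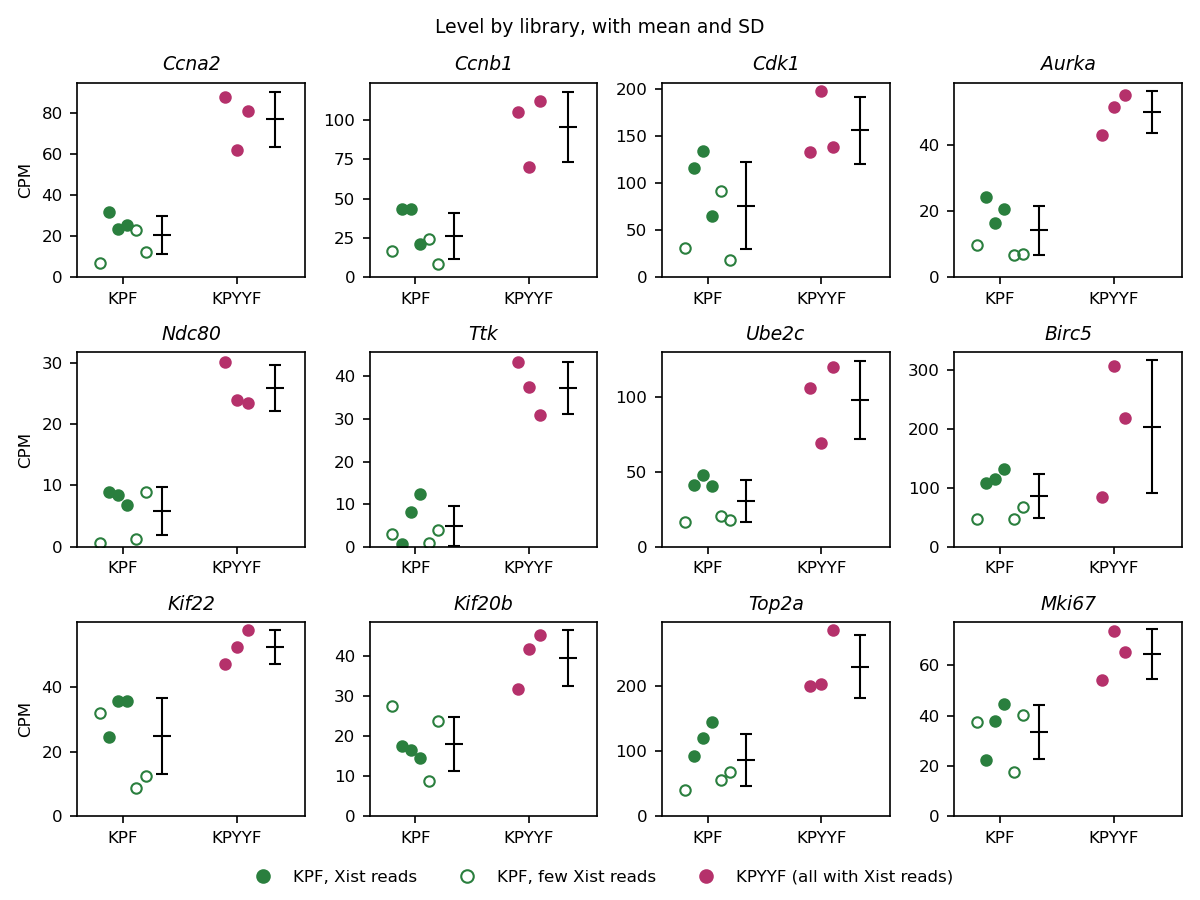
CPM of 12 members by library, with the mean and SD of each group (black, 6 KPF and 3 KPYYF libraries). Open points are the KPF libraries with few Xist reads. The groups do not overlap in 10 of the 12 panels, and they overlap for Cdk1 and Birc5. These 12 members were picked and do not stand for the rest. Of all 59 tested members, 25 (42.4%) were higher in KPYYF without overlap, against 3.92% of all genes.

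Centromere and kinetochore genes join chromosomes to spindle microtubules. All 9 had a log2 fold change above 0 (median 0.93), and 4 of 9 had an unadjusted p under 0.05 (Cenpa, Cenpf, Ndc80 and Knl1). Ndc80 (ENSMUSG00000024056, chr17:71496100-71526857), the microtubule-binding subunit that gives its complex its name, had 0.681 to 8.91 CPM in KPF (median 7.61) and 30.2, 23.9 and 23.4 CPM in KPYYF. The groups did not overlap, and KPF libraries 4269 and 4515 stood near 1 CPM (log2 fold change 2.15 ± 0.73, edgeR adjusted p = 0.166). Its 3 partners in the complex gave smaller values, at 0.77 ± 1.08 for Nuf2, 0.93 ± 0.57 for Spc24 and 0.70 ± 0.52 for Spc25. Spc25 had 4.09 to 19.2 CPM in KPF (median 15.9) and 28.4, 20.3 and 20.2 CPM in KPYYF, so the groups met without overlap (edgeR adjusted p = 0.553). Whether the 4 subunits differ from each other was not tested. Knl1, the scaffold that recruits the checkpoint kinase Bub1, had 0.664 to 10.2 CPM in KPF and 23.4, 18.04 and 18.7 CPM in KPYYF (1.75 ± 0.71). Cenpk, a subunit of the constitutive centromere network, had the largest fold change of the role at low levels, with 0.205 to 5.21 CPM in KPF (median 0.486, highest in 4504h) and 2.85, 12.6 and 8.0 CPM in KPYYF (2.40 ± 1.21, edgeR adjusted p = 0.358). Cenpa, the histone that marks centromeres, had 31.9 to 115 CPM in KPF and 97.96, 144 and 167 CPM in KPYYF (1.05 ± 0.41), with KPF libraries 4435 and 4504h reaching the KPYYF range.

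Spindle checkpoint genes delay anaphase, Cdc20 and Ube2c help to destroy securin (Pttg1), and separase (Espl1), which securin holds inactive, then parts the sister chromatids. All 9 had a log2 fold change above 0 (median 0.95), 5 of 9 had an unadjusted p under 0.05 (Bub1b, Bub3, Ttk, Cdc20 and Ube2c), and the role spanned nearly the whole range of the members. Ttk (ENSMUSG00000038379, chr9:83834689-83872389), the kinase Mps1 that starts the checkpoint, had 0.615 to 12.5 CPM in KPF (median 3.48) and 43.3, 37.5 and 31.0 CPM in KPYYF. The lowest KPYYF library was above the highest KPF library, and 4435 was lowest, unlike most members (log2 fold change 2.93 ± 0.76, edgeR adjusted p = 0.0891). Ube2c (ENSMUSG00000001403, chr2:164769898-164778822), the ubiquitin-conjugating enzyme of the anaphase-promoting complex, had 16.3 to 48.0 CPM in KPF (median 30.6) and 106, 69.3 and 119.9 CPM in KPYYF (1.68 ± 0.40, edgeR adjusted p = 0.0631). The unadjusted p of Ttk and of Ube2c stayed under 0.05 without any 1 library. Espl1, the protease that cleaves cohesin, had 1.88 to 11.0 CPM in KPF (median 7.32) and 5.94, 5.79 and 9.64 CPM in KPYYF (0.12 ± 0.80, edgeR adjusted p = 0.968), and its highest library was 4435 of KPF. Pttg1, its inhibitor, had 6.56 to 39.9 CPM in KPF and 40.1, 14.5 and 24.7 CPM in KPYYF (0.24 ± 0.53), so the protease and its inhibitor both overlapped between the groups. Mad2l1, the checkpoint protein that binds Cdc20, had 5.83 to 30.1 CPM and 26.8, 20.7 and 15.6 CPM (0.51 ± 0.54), and Bub3, which docks the checkpoint on kinetochores, had 133 to 190.0 and 190.0, 294 and 208 CPM (0.57 ± 0.25).

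The chromosomal passenger complex holds the kinase Aurkb with Incenp, Birc5 and Cdca8 at centromeres and then at the midzone. All 4 had an unadjusted p under 0.05, and the median log2 fold change was 1.18. Aurkb (ENSMUSG00000020897, chr11:69045647-69051664) had the largest fold change of all members at low levels, with 0 to 4.29 CPM in KPF (median 1.13, no read in 4269) and 22.4, 7.87 and 7.89 CPM in KPYYF (3.08 ± 1.14, edgeR adjusted p = 0.197). Incenp (ENSMUSG00000024660, chr19:9872296-9899551), the scaffold, had 45.5 to 93.0 CPM in KPF (median 61.7) and 100.3, 138 and 137 CPM in KPYYF (0.91 ± 0.31, edgeR adjusted p = 0.168). Both genes had no overlap between groups. Birc5 (ENSMUSG00000017716, chr11:117849251-117855743), survivin, had 46.6 to 133 CPM in KPF (median 87.6) and 84.1, 308 and 219.6 CPM in KPYYF (1.24 ± 0.43, edgeR adjusted p = 0.169). Cdca8, borealin, showed the same order, with 32.1 to 82.9 CPM in KPF and 46.8, 163 and 125 CPM in KPYYF (1.12 ± 0.39). KPYYF library 4449 thus lay within the KPF range for Birc5 and Cdca8 and was the highest of all libraries for Aurkb.

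Of the kinesins of chromosome arms and microtubule ends, 3 were tested, all with a log2 fold change above 0. Kif22 (ENSMUSG00000030677, chr7:127027729-127042471), which pushes chromosome arms to the spindle equator, had 8.63 to 35.6 CPM in KPF (median 28.2) and 47.1, 52.4 and 57.5 CPM in KPYYF (1.08 ± 0.45, edgeR adjusted p = 0.251), without overlap. Kif4 (ENSMUSG00000034311, chrX:100625737-100727214), a chromokinesin of the X chromosome, had 0 to 15.98 CPM in KPF (median 4.76, no read in 4269) and 18.6, 23.7 and 18.2 CPM in KPYYF (1.81 ± 0.98, edgeR adjusted p = 0.391), also without overlap. Kif2c, a kinesin that shortens microtubule ends, had 0.775 to 19.4 CPM in KPF (median 9.46) and 6.29, 20.01 and 21.4 CPM in KPYYF (0.74 ± 0.78, edgeR adjusted p = 0.707). Kif18b, under the count minimum, ran from 0 to 3.53 CPM in KPF and from 0 to 3.62 CPM in KPYYF.

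Midzone and cytokinesis genes part the daughter cells. All 8 had a log2 fold change above 0 (median 1.05), 3 of 8 had an unadjusted p under 0.05 (Kif20a, Kif20b and Anln), and in Kif20b alone the groups did not overlap. Kif20b (ENSMUSG00000024795, chr19:34922361-34975745), a midzone kinesin, had 8.74 to 27.4 CPM in KPF (median 17.0) and 31.7, 41.8 and 45.3 CPM in KPYYF (1.13 ± 0.41, edgeR adjusted p = 0.190). Kif14, a kinesin of the midbody, had 0.584 to 14.0 CPM in KPF (median 6.10) and 17.8, 11.3 and 28.3 CPM in KPYYF (1.57 ± 0.75, edgeR adjusted p = 0.324). Anln, an actin-binding scaffold of the cleavage furrow, had 3.21 to 43.1 CPM in KPF and 44.4, 29.5 and 66.0 CPM in KPYYF (1.52 ± 0.67), with 4504h of KPF above 4891 of KPYYF. Kif23 and Racgap1, the kinesin and the GTPase regulator that form centralspindlin, had the smallest fold changes of the role, and their groups overlapped. Kif23 had 19.8 to 58.2 CPM in KPF (median 48.4, highest in 4515) and 46.5, 56.9 and 39.8 CPM in KPYYF (0.18 ± 0.40, edgeR adjusted p = 0.881). Racgap1 had 12.1 to 51.7 CPM and 27.7, 24.3 and 59.7 CPM (0.46 ± 0.52), and among the libraries with Xist reads the log2 fold change of Kif23 was -0.06 and that of Racgap1 -0.08. Ect2, the exchange factor that centralspindlin activates, had a log2 fold change of 0.98 ± 0.55, and Prc1, the bundler of midzone microtubules, of 0.86 ± 0.47.

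Chromosome structure genes untangle and condense the chromosomes. All 9 had a log2 fold change above 0 (median 1.09), and 5 of 9 had an unadjusted p under 0.05 (Top2a, Ncapd2, Cdca5, Cdca2 and Mki67), against 6.10% of all genes higher. The same 5 had no overlap, against 3.92% of all genes higher without overlap. Top2a (ENSMUSG00000020914, chr11:98992943-99024189), the topoisomerase that decatenates sister chromatids, had 40.0 to 144 CPM in KPF (median 80.5) and 199.7, 203 and 285 CPM in KPYYF (means 86.9 ± 39.7 and 229 ± 48.4 CPM, log2 fold change 1.40 ± 0.37, edgeR adjusted p = 0.0915). Mki67 (ENSMUSG00000031004, chr7:135689784-135716361), the coat protein of mitotic chromosomes used as a proliferation marker, had 17.5 to 44.4 CPM in KPF (median 37.6) and 53.9, 73.7 and 65.3 CPM in KPYYF. The groups did not overlap, and the log2 fold change was 0.95 ± 0.35 (edgeR adjusted p = 0.201) and 0.90 among the libraries with Xist reads. Cdca5, sororin, which protects cohesin until anaphase, had 0.885 to 13.2 CPM in KPF (median 6.93) and 35.5, 14.9 and 22.9 CPM in KPYYF (1.80 ± 0.72, edgeR adjusted p = 0.231). The condensin subunits gave log2 fold changes of 1.14 ± 0.36 (Ncapd2), 1.09 ± 0.51 (Ncaph), 0.93 ± 0.54 (Ncapg), 0.78 ± 0.38 (Smc2) and 0.58 ± 0.31 (Smc4). Smc4 had 73.6 to 194 CPM in KPF (median 132) and 155, 229.7 and 210.4 CPM in KPYYF, with library 4269 of KPF above 4449 of KPYYF (edgeR adjusted p = 0.392).

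**Figure D5:**
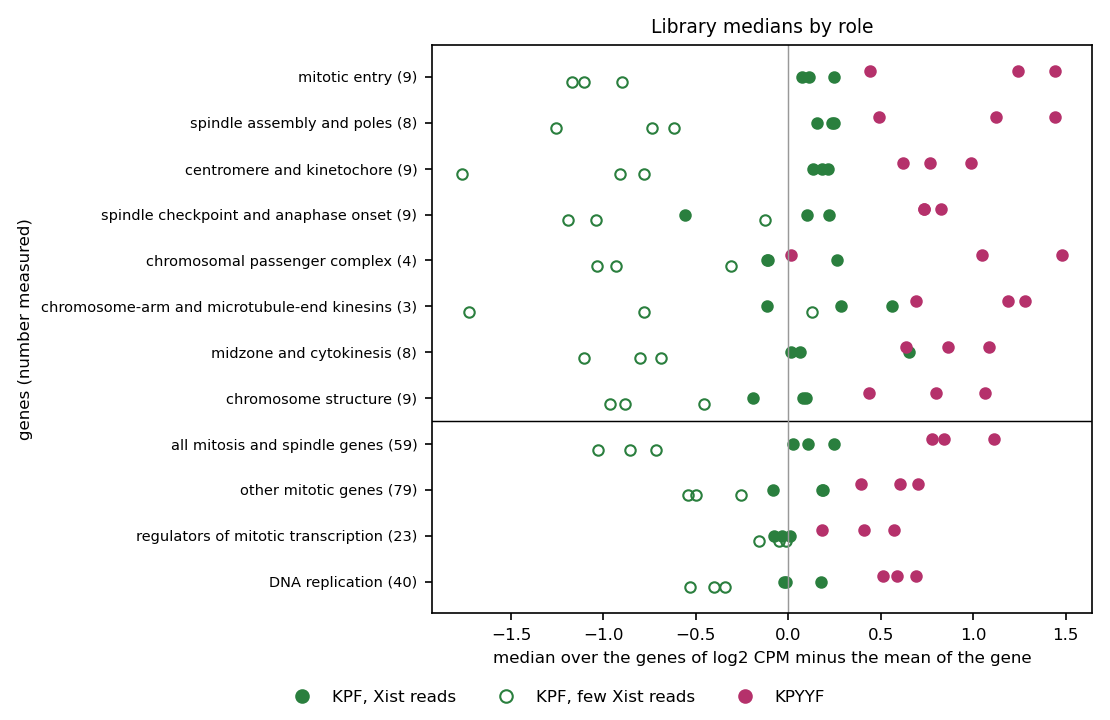
Median over the genes of each role (top) and of each whole list (bottom) of log2 CPM minus the gene's mean, 1 point per library. Green points are KPF, open where the library has few Xist reads, and magenta points are KPYYF. KPYYF libraries lie to the right in each list, and they overlap KPF libraries for the chromosomal passenger complex, where 4449 stands at 0.015, and for the midzone, where 4504h stands at 0.65.

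Among 79 other genes of mitosis (anaphase-promoting complex, centrosome, centromere and cohesion genes), 63 (79.7%) had a log2 fold change above 0 (median 0.73), against 46.7% of all genes. None passed an adjusted p of 0.05 in edgeR. At an unadjusted p under 0.05, 19 (24.1%) were higher and 1 (Anapc2, 1.27%) lower, against 6.10% and 10.0% of all genes. The smallest p-values were those of Ska1, a kinetochore subunit that tracks microtubules (log2 fold change 2.24 ± 0.56, edgeR adjusted p = 0.0772), and of Cenpw, a centromere histone-fold protein (1.89 ± 0.47, edgeR adjusted p = 0.0788). Ska1 had 1.56 to 12.1 CPM in KPF and 25.4, 29.3 and 42.4 CPM in KPYYF. DESeq2 called both genes higher (adjusted p = 0.0055 and 0.00914).

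The 23 regulators of mitotic transcription gave a median log2 fold change of 0.55, with 18 (78.3%) above 0, against 46.7% of all genes. None passed an adjusted p of 0.05 in edgeR. At an unadjusted p under 0.05, 3 (13%) were higher (Foxm1, E2f1 and E2f6), against 6.10% of all genes. Foxm1 (ENSMUSG00000001517, chr6:128362967-128376146), the forkhead activator of G2/M genes, had 7.53 to 33.4 CPM in KPF (median 13.6) and 49.5, 60.4 and 76.4 CPM in KPYYF, without overlap (1.75 ± 0.49, edgeR adjusted p = 0.109). DESeq2 called it (adjusted p = 0.0229), and over 17 alternatives its adjusted p ran from 0.0229 to 0.294. Mybl2, the activating subunit next to MuvB, had 0.221 to 7.18 CPM in KPF and 2.49, 21.3 and 29.8 CPM in KPYYF, with 4449 inside the KPF range (1.93 ± 0.89, edgeR adjusted p = 0.310). Lin9, a core subunit of MuvB, had 3.27 to 20.2 CPM in KPF and 15.8, 18.04 and 12.8 CPM in KPYYF (0.62 ± 0.62, edgeR adjusted p = 0.694). E2f1, an activator of S phase genes, had 6.97 to 63.3 CPM in KPF and 46.8, 121 and 172 CPM in KPYYF (1.76 ± 0.58, edgeR adjusted p = 0.159).

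DNA replication genes act in S phase, before the members do. Of 40, 36 (90%) had a log2 fold change above 0 (median 0.72), against 46.7% of all genes. By adjusted p, 2 (5%) were higher, against 0.305% of all genes. Cdt1, which licenses replication origins, had 27.8 to 34.96 CPM in KPF and 64.4, 116 and 70.6 CPM in KPYYF (1.44 ± 0.30, edgeR adjusted p = 0.0357). Pold2, a subunit of DNA polymerase delta, had 6.23 to 29.1 CPM in KPF and 94.9, 93.0 and 45.2 CPM in KPYYF (2.23 ± 0.48, edgeR adjusted p = 0.0444). The adjusted p was 0.05 or more under 10 of 17 alternatives for Cdt1 and under 11 of 17 for Pold2, and reached 0.199 and 0.198. Pcna, the polymerase clamp, had 12.6 to 42.0 CPM in KPF and 21.2, 23.7 and 67.1 CPM in KPYYF (0.39 ± 0.48, edgeR adjusted p = 0.750). Mcm2, a helicase subunit, had 18.2 to 81.3 CPM in KPF and 15.3, 28.0 and 44.7 CPM in KPYYF (-0.71 ± 0.51, edgeR adjusted p = 0.540). The difference in median between the members (1.13), the other mitotic genes (0.73) and the DNA replication genes (0.72) is a description without a test.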

How the data were processed

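RNA of 6 KPF and 3 KPYYF sorted cell samples was purified with the RNAeasy Mini kit and made into Lexogen QuantSeq 3' Fwd libraries. The authors deposited 1 file of raw read counts per gene for each library, and their processing notes name STAR, HTSeq and mm10, without versions. Rows that name no gene (reads not placed uniquely, reads on no feature and ambiguous reads) were left out of library sizes. Genes with near-identical copies can lose reads this way, and whether counting used the strand is not given in the sources used here. Reads not placed uniquely were 43.9% to 48.5% of a KPF library and 49.2% to 53.4% of a KPYYF library. Reads on genes were 38.5% to 42.0% in KPF and 37.3% to 38.2% in KPYYF. Neither share overlapped between the groups, and their part in the results was not tested. Ensembl identifiers were named and placed with GENCODE M21 (GRCm38), which matched 47224 of 47643.

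Genes with at least 100 reads over the 9 libraries (14105) were fitted in edgeR 4.0.16 (TMM, robust quasi-likelihood test, KPYYF against KPF, Benjamini-Hochberg adjustment over all 14105), as the study's methods filter and compare, with edgeR in place of DESeq2. CPM values use TMM-scaled library sizes, and ± after a fold change is 1 SE. Single genes were also compared with an exact permutation test of log2 CPM (prior count 2). The scripts were tested on simulated data. DESeq2 1.42.0, limma 3.58.1 with voom, other normalizations and filters, 4504h and 4504s summed, each library left out, and only libraries with at least 1000 Xist reads were tried as alternatives. Named genes follow a rule: the common proliferation genes Mki67, Cdk1, Ccnb1, Aurka, Top2a and Birc5, and in each role the genes with the smallest p and the largest and smallest fold change are given with the KPF median. Of the other lists, genes with an adjusted p under 0.05, otherwise the 2 smallest p-values, and Foxm1, Mybl2, Lin9, Pcna and Mcm2 are named. Further members named with their values were chosen after these were seen. The members, the lists and the rule were chosen with earlier results of these data known. One allele that both genotypes carry and one marker gene are not reported here.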

Additional observations from a re-analysis of the deposited data

Results flagged for a closer look

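In 49 sets of values over the 6 KPF libraries (the named genes and the summed lists), 5 held a library far from the other 5 by Dixon's ratio at its 95% level, where chance flags about 1 in 20. Cenpk stood at 5.21 CPM in 4504h, against 0.205 to 2.05 CPM in the other KPF libraries. The other flags were marker sums: carcinoma epithelium at 11690 CPM in 4515 (others 3238 to 6251), leukocytes at 7840 CPM in 4601 (459 to 1326), lymphocytes at 138 CPM in 4601 (1.33 to 34.8) and acinar cells at 19210 CPM in 4504s (64.3 to 955.8). Without 4601 the median log2 fold change of the members was 1.05, without 4515 it was 1.075, and without 4504s it was 1.25. Their part in the results was not tested.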

How the results depend on the processing

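The median log2 fold change of the members lay between 0.85 (libraries with Xist reads only) and 1.33 (without 4504h) over 17 alternatives, and 55 to 60 members stayed above 0. The number of members with an adjusted p under 0.05 was 0 in edgeR, with 0.305% of all genes higher. It was 11 in DESeq2 (1.96% of all genes), 8 without a filter on low counts (0.384%), 1 with filterByExpr (0.302%) and 2 in limma-voom (0.305%). With 1 library left out it was 0 to 1 (0.0425% to 0.532%). Members higher at an unadjusted p under 0.05 numbered 33 (6.10% of all genes) and, with the libraries with Xist reads only, 21 (4.88%). With 1 library left out they numbered 23 (without 4938) to 38 (without 4504h), against 4.72% to 6.45% of all genes. Of single members, 5 changed sign in 10 values, none of which was past the threshold. With Xist libraries only, Kif15 gave -0.22, Espl1 -0.33, Kif23 -0.058 and Racgap1 -0.081, and in limma-voom Pttg1 gave -0.019. With 1 library left out, Espl1 ran from -0.16 to 0.32 (below 0 without 4515, 4601 or 4938), Racgap1 from -0.064 (without 4938) to 0.74, Pttg1 from -0.19 (without 4449) to 0.53 and, outside the members, Pcna from -0.34 (without 4938) to 0.68. The cause was not tested. Over all genes, 43 were higher and 112 lower by adjusted p, against 269 and 928 in DESeq2, 88 and 219 without a filter, 44 lower in limma-voom, 25 higher with 4504h and 4504s summed, 7 and 38 with Xist libraries only, and 6 to 75 higher and 13 to 194 lower with 1 library left out. No paired analysis was possible because the labels carry no replicate numbers, those used here only follow the order of the samples, and the groups come from different mice. The common biological coefficient of variation was 0.825. Members with few reads had wide errors (Aurkb, 0 reads in its lowest library and SE 1.14, and Cenpk, 2 reads and SE 1.21), and Bub3, with at least 927 reads in every library, had an SE of 0.25.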
